A study of Mus musculus with 24 samples.

Results

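The genes described here are 9 transcripts of neutrophils, the first white cells to enter an inflamed lung: S100a8, S100a9, Retnlg, Mmp8, Mmp9, Padi4, Ngp, Camp and Ltf. They were chosen by name, and each symbol matched 1 of the 78298 rows of the deposited table. S100a8, S100a9, Retnlg, Mmp8, Mmp9 and Padi4 (6 genes) were taken as transcripts of mature cells, and Ngp, Camp and Ltf (3 genes) as transcripts of granulocyte precursors. All 9 were measured in 24 lungs and all 9 passed the filter on low values, which kept 17823 genes with at least 1 TPM (a length-normalized share of all transcripts in a library) in at least 4 libraries.

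The lungs came from wild-type C57BL/6 mice aged 7 weeks, with 1 library per mouse. Mice of the LPS group (n = 5) received 5 mg/kg of lipopolysaccharide (LPS), a bacterial cell-wall component that starts acute lung inflammation, into the trachea on day 29. AEAA, a water extract of Artemisia argyi (a mugwort), was drunk over the 28 days before the same LPS dose. Its concentration was 0.5 mg/mL in the low-dose group, 1 mg/mL in the mid-dose group and 1.5 mg/mL in the high-dose group (n = 5 in each). Control mice (n = 4) received saline and no extract by the protocol, although their sample characteristics list the LPS challenge. Lungs were taken 8 h after instillation. No group received extract without LPS, so an effect of the extract on an unchallenged lung was not measured.

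Neutrophils load their granules while they mature in the bone marrow, in a fixed order: primary granules first, then specific granules, then gelatinase granules. Transcripts for specific granule proteins such as lactotransferrin and cathelicidin are therefore made mostly in marrow precursors and decline as the cell matures, whereas the calprotectin subunits S100A8 and S100A9 stay abundant in the mature cell. When released, calprotectin acts as an alarmin, a danger signal that binds the receptors TLR4 and RAGE. In whole lung tissue, fewer cells of a type and less RNA per cell cannot be told apart.

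Promoter sequences are shown for S100a8 and S100a9, the member pair closest in order of lungs, and for the precursor genes Ngp, Camp and Ltf. Of the precursor genes, Ltf did not move with the other 2. The windows are from RefSeq on build GRCm38.p6, from 250 bases before to 50 bases after the gene start, in the 5′ to 3′ direction of the gene. They lie at chr3:90668821-90669120 on the plus strand for S100a8, chr3:90695672-90695971 on the minus strand for S100a9, chr9:110419558-110419857 on the plus strand for Ngp, chr9:109849407-109849706 on the minus strand for Camp and chr9:111019042-111019341 on the plus strand for Ltf. Capitals mark either of 2 searched letter strings on either strand: TTGCNNAA, the type bound by C/EBP factors, and GAGGAAG, a string bound by ETS factors of the myeloid lineage.
S100a8: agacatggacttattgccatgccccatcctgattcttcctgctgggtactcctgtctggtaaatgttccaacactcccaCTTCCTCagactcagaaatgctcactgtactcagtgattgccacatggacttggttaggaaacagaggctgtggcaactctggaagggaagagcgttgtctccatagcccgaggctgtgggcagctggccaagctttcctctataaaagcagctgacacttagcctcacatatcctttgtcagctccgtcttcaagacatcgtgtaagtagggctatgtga
S100a9: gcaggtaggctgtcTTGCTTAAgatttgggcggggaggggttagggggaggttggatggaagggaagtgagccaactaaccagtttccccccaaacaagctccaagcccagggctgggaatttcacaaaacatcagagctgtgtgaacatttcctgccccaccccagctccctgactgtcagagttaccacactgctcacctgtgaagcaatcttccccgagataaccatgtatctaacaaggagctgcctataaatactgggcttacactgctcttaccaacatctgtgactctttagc
Ngp: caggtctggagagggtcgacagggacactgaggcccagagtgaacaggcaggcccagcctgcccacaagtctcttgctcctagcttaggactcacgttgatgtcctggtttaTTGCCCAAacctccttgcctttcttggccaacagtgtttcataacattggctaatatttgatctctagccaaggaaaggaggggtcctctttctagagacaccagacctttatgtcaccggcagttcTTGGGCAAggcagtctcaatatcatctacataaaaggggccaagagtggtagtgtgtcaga
Camp: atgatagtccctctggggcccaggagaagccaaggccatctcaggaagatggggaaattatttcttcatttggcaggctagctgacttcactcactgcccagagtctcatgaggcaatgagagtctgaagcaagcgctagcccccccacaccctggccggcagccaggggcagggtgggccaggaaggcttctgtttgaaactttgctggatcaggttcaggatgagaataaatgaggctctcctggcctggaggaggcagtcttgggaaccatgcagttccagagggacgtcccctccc
Ltf: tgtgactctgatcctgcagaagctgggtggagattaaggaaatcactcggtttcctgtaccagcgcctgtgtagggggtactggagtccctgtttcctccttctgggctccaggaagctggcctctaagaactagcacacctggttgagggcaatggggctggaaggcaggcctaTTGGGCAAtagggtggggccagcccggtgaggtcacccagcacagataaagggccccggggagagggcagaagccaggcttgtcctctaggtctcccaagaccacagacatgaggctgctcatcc
The C/EBP-type string stood 236 bases before the start of S100a9, 75 before that of Ltf, and at 138 and 11 bases before that of Ngp. The ETS-type string stood 171 bases before the start of S100a8, and Camp held neither. Of the 9 members, 8 had a window in the table and Mmp9 had none. The C/EBP-type string was found in 5 of these 8 windows (S100a9, Mmp8, Ngp, Ltf and Retnlg), against 10.8% of all 27025 windows of the same length. The ETS-type string was found in 2 of the 8 (S100a8 and Mmp8), against 13.5% of all windows. The 2 strings did not overlap in any member's window. These are letter matches only.

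Several facts of the whole series bear on every value below. Scgb1a1, the secretory protein of club cells, took 23.2 to 35.5% of all TPM in the control libraries and 3.13 to 6.46% in the LPS libraries, and the values of a library have a fixed sum. The median gene was 0.55 higher in LPS than in control lungs on the log2 scale, and 0.02 higher after each library was divided by its median-of-ratios factor, called scaled below. Early response transcripts were uneven between challenged lungs: Cxcl2, a neutrophil attractant induced by LPS, was below 2 TPM in 7 of the 20 challenged libraries (0.09 to 1.37 TPM) and at 45.1 to 454 TPM in the other 13. The 7 libraries were LPS replicates 2 and 4, low-dose replicate 1, mid-dose replicates 1 and 4 and high-dose replicates 1 and 4, and Tnf, another early target of LPS, stood at 0.47 to 1.65 TPM in them and at 17.7 to 64.5 TPM in the others. These libraries were kept, since setting them aside would choose mice by their response; each library was left out in turn instead. The labels give male mice, yet Xist stood at 25.8 to 95.5 TPM in all 24 libraries and the Y-linked Ddx3y, Uty, Kdm5d and Eif2s3y at 0.15 TPM or less. Between 14996 and 16954 genes reached 1 TPM in a library, and no 2 libraries were identical.

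Ly6g and Cxcr2, 2 transcripts of neutrophils, were low in control lungs and higher in most challenged lungs. Ly6g, a surface marker of mouse neutrophils, stood at 0.63 to 14.5 TPM in the 20 challenged libraries and at 0 to 0.15 TPM in the 4 control libraries. Cxcr2, the receptor for neutrophil attractants, stood at 1.29 to 55.6 TPM in challenged and 0.79 to 1.42 TPM in control libraries. For Cxcr2, 19 of the 20 challenged libraries lay above the highest control library. Not every transcript listed for mature neutrophils was low in control lungs. G0s2 stood at 53.7 to 125 TPM in challenged and 82.1 to 110 TPM in control libraries. The 9 members together made up 0.0598 to 1.26% of all TPM in LPS lungs, 0.154 to 0.389% in low-dose lungs, 0.0288 to 0.730% in mid-dose lungs, 0.0388 to 1.19% in high-dose lungs and 0.0139 to 0.0202% in control lungs. S100a9 was the most abundant member in 23 of the 24 libraries. The exception was high-dose replicate 4, where Ltf came first.

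**Figure D1:**
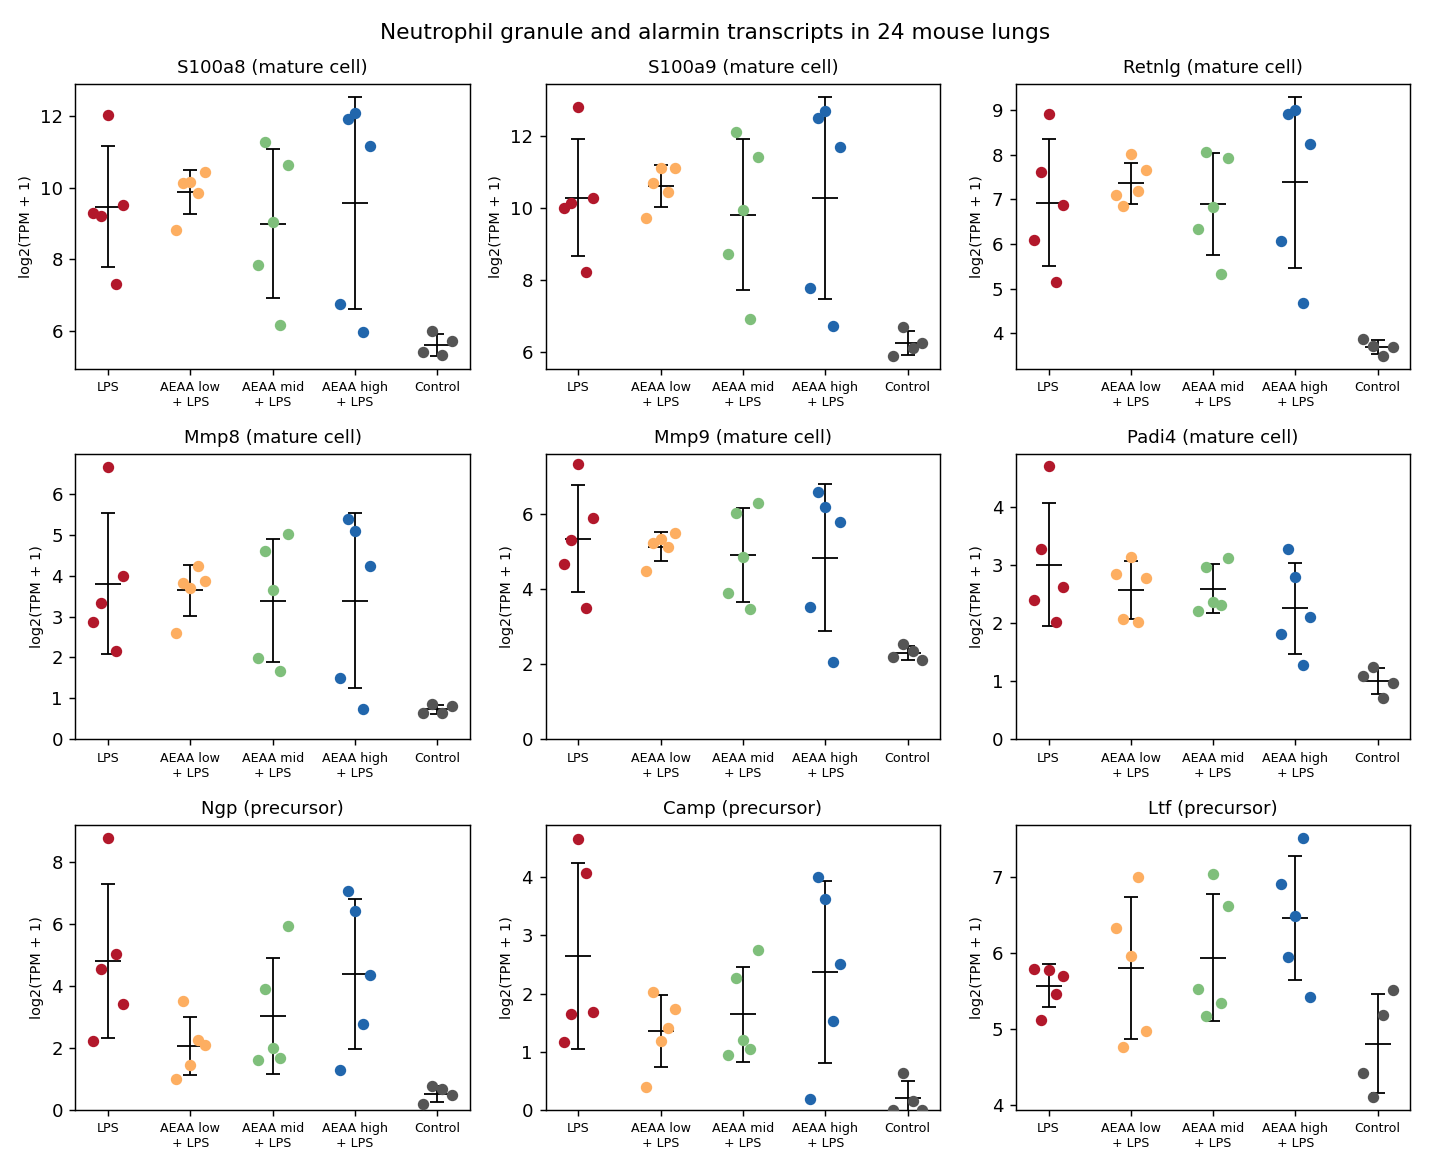
Level of each of the 9 transcripts as log2(TPM + 1) in each library (points), with the mean and SD of each group (bars), for LPS, the 3 AEAA doses with LPS, and Control. Control libraries sit close together for 8 transcripts, while the LPS and high-dose libraries spread widely; only Ltf has control libraries inside the range of every challenged group.

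LPS lungs were compared with control lungs to describe what the challenge alone did to these transcripts. Of the 9 members, 8 rose and 1, Ltf, did not pass the test (limma on log2(TPM + 1), adjusted p of 0.05 over all genes). Of all genes tested, 56.2% were called higher in this comparison. After scaling 7 members were called higher, against 14.2% of all genes. Whether a gene overlapped between the groups is given below as a description, and its share over all genes was not counted. The alarmin pair and Ngp had log2 fold changes near 4, the collagenase, gelatinase and resistin-like genes near 3, and Camp and Padi4 between 2 and 2.5.

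S100a9, the calprotectin subunit that is most abundant in neutrophils, stood at 1034, 1127, 7145, 299 and 1245 TPM in LPS lungs and at 58.6, 103, 68.9 and 76.0 TPM in control lungs. The groups did not overlap, replicate 3 was far above the other LPS lungs and replicate 4 was the lowest. The log2 fold change was 4.05 (SE 1.15, adjusted p = 0.00459) and 3.39 after scaling (adjusted p = 0.0374). S100a8, its partner subunit, stood at 632, 595, 4221, 157 and 724 TPM in LPS lungs and at 41.0, 62.0, 38.7 and 51.5 TPM in control lungs. It had the same order of high and low lungs at both ends, with replicate 3 highest and replicate 4 lowest, and no overlap with control. Its log2 fold change was 3.88 (SE 1.19, adjusted p = 0.00794), and 3.23 after scaling, where it no longer passed (adjusted p = 0.0540). The TPM of S100a9 was 1.43 to 2.04 times that of S100a8 in every one of the 24 libraries, so the subunits kept nearly one proportion while each ranged over a wide span of levels.

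Retnlg encodes resistin-like gamma, a secreted protein of mouse neutrophils. It stood at 67.6, 195, 478, 34.8 and 117 TPM in LPS lungs and at 13.8, 12.1, 10.3 and 11.9 TPM in control lungs. Again replicate 3 was highest, replicate 4 was lowest and the groups were apart. The log2 fold change was 3.24 (SE 0.787, adjusted p = 0.00136).

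Mmp8 and Mmp9 encode the neutrophil collagenase and gelatinase B, metalloproteinases kept in specific and gelatinase granules. Mmp8 stood at 6.30, 9.12, 100.8, 3.50 and 14.9 TPM in LPS lungs and at 0.56, 0.81, 0.55 and 0.75 TPM in control lungs, a log2 fold change of 3.07 (SE 0.934, adjusted p = 0.00762). Mmp9 stood at 24.4, 38.3, 159, 10.2 and 58.5 TPM in LPS lungs and at 3.56, 4.80, 4.09 and 3.28 TPM in control lungs, a log2 fold change of 3.04 (SE 0.804, adjusted p = 0.00274). For both enzymes the lowest LPS lung lay above the highest control lung. The 4 inhibitors of these proteases, Timp1 to Timp4, were all called higher, and 1 of the 4 was after scaling (Timp4). Of all genes 56.2% were called higher, and 14.2% after scaling. Timp1 had a log2 fold change of 3.34 (SE 1.16, adjusted p = 0.0173), Timp4 of 1.10, Timp3 of 0.84 and Timp2 of 0.59, where the median gene had 0.55. After scaling Timp3 stood at 0.19 and Timp2 at -0.06.

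Padi4 encodes the enzyme that converts arginine of histones to citrulline when neutrophils release chromatin traps. It stood at 4.24, 8.74, 25.2, 3.06 and 5.15 TPM in LPS lungs and at 1.12, 1.38, 0.63 and 0.96 TPM in control lungs. The groups were apart, and the log2 fold change of 2.00 (SE 0.433, adjusted p = 0.000435) was the smallest of the mature-cell genes. Because TPM of this gene are low, the added 1 makes that value smaller than the ratio of the TPM.

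Of the precursor genes, Ngp encodes neutrophilic granule protein, a specific granule protein related to the cathelicidins, and had the largest log2 fold change of the 9 with all libraries included. It stood at 3.62, 22.2, 437, 31.9 and 9.75 TPM in LPS lungs and at 0.14, 0.72, 0.58 and 0.38 TPM in control lungs. Replicate 3 was far above every other LPS lung, and the groups did not overlap. The log2 fold change was 4.27 (SE 1.19, adjusted p = 0.00396), and 3.28 without replicate 3, still past the threshold but below the 3.42 of S100a9 without that library.

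Camp encodes the cathelicidin, a precursor of an antimicrobial peptide. It stood at 1.24, 2.14, 24.4, 15.9 and 2.20 TPM in LPS lungs and at 0, 0.56, 0.11 and 0 TPM in control lungs. Replicates 3 and 4 were high, the other 3 LPS lungs lay just above control. The log2 fold change was 2.45 (SE 0.724, adjusted p = 0.00622).

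Ltf encodes lactotransferrin, the iron-binding protein of specific granules, which glandular epithelium makes as well. It stood at 54.5, 33.9, 53.8, 42.9 and 51.1 TPM in LPS lungs and at 20.4, 16.2, 35.5 and 45.0 TPM in control lungs. The groups overlapped, and replicate 3, which was highest for every other member, lay among the other LPS lungs. The log2 fold change of 0.76 (SE 0.476, adjusted p = 0.178) was close to the shift of the median gene, and it was 0.13 after scaling (adjusted p = 0.858).

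The fold changes of the members over control are plotted for each challenged group with their 95% intervals. The mature-cell genes had a median log2 fold change of 3.15 in LPS against control lungs, the precursor genes of 2.45 and all genes of 0.55; after scaling these were 2.65, 2.23 and 0.02.

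**Figure D2:**
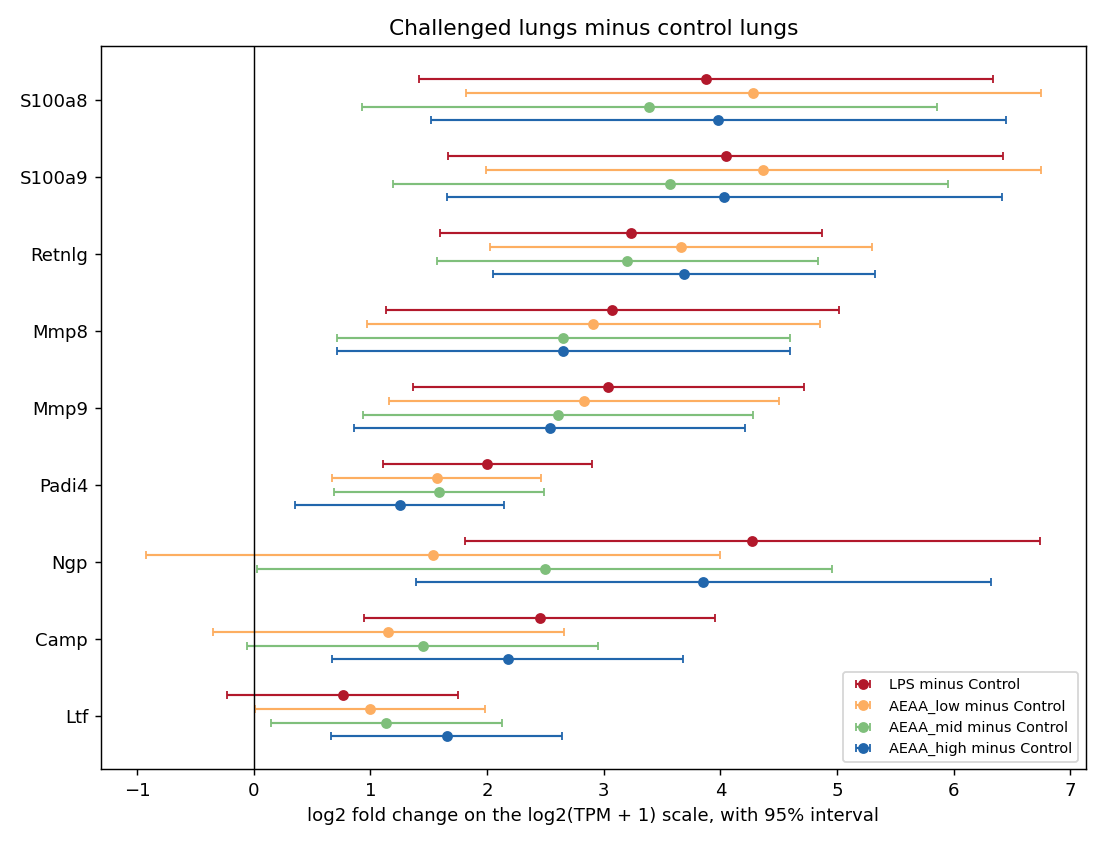
Log2 fold change (x axis, log2(TPM + 1) scale) of the 9 transcripts in LPS, low-dose, mid-dose and high-dose lungs over control lungs, with 95% intervals from 1 fit to all libraries. Intervals of the 6 mature-cell genes lie above 0 in all 4 groups, and those of Ngp at the low dose, Camp at the low and mid dose and Ltf in LPS lungs reach below 0.

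The same members were next compared between each extract group with LPS and the control group, which all share the 4 control libraries. The 6 mature-cell genes rose at every dose, and the precursor genes differed from dose to dose in whether they passed. At the low dose 6 of the 9 members rose, the mature-cell genes (44.4% of all genes called higher; after scaling 6 members and 13.4%). At the mid dose 7 rose, the mature-cell genes and Ltf (53.3% of all genes), and 2 after scaling, Retnlg and Padi4 (14.7%), a count near its background. At the high dose all 9 rose (37.5% of all genes), and 6 after scaling (10.2%), without Mmp8, Mmp9 and Padi4. The count at the high dose was 5 without high-dose replicate 2.

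S100a9 stood at 839, 1647, 2215, 1406 and 2202 TPM in low-dose lungs, at 419.7, 4399, 995, 119 and 2724 TPM in mid-dose lungs and at 217, 5795, 6697, 105 and 3334 TPM in high-dose lungs. The low-dose lungs were close to one another, whereas the mid-dose and high-dose lungs held both near-control and very high values. Replicates 1 and 4, the lowest at both the mid and the high dose, were among the 7 challenged lungs with Cxcl2 below 2 TPM. So was low-dose replicate 1, the lowest of its group and the only such low-dose lung. Whether this bears on the spread was not tested. The lowest high-dose lung, replicate 4, lay just above the highest control lung. The log2 fold changes over control were 4.37 in low-dose lungs (SE 1.15, adjusted p = 0.00355), 3.57 in mid-dose lungs (adjusted p = 0.0114) and 4.03 in high-dose lungs (adjusted p = 0.00799). S100a8 went with it, at 452 to 1384 TPM in low-dose lungs, 70.3 to 2489 TPM in mid-dose lungs and 61.8 to 4357 TPM in high-dose lungs, and its log2 fold changes were 4.28, 3.39 and 3.98.

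Retnlg ranged over 114 to 257 TPM in low-dose lungs, 39.1 to 267 TPM in mid-dose lungs and 24.8 to 515 TPM in high-dose lungs, all above the highest control lung at 13.8 TPM. Its log2 fold changes were 3.66, 3.20 and 3.69 (adjusted p = 0.000721, 0.00160 and 0.000915), and it passed at every dose after scaling too. Mmp8 ranged over 5.03 to 17.9, 2.20 to 31.6 and 0.67 to 41.1 TPM at the low, mid and high dose, with log2 fold changes of 2.91, 2.65 and 2.65. Mmp9 ranged over 21.3 to 43.9, 10.1 to 76.5 and 3.17 to 95.2 TPM, with log2 fold changes of 2.83, 2.61 and 2.54. High-dose replicate 4 held the lowest value of both genes, inside the control range for Mmp8 and just below it for Mmp9. Padi4 ranged over 3.06 to 7.80, 3.62 to 7.66 and 1.44 to 8.63 TPM at the 3 doses, above every control lung, with log2 fold changes of 1.57, 1.59 and 1.25.

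Ngp stood at 1.00, 10.3, 1.74, 3.78 and 3.26 TPM in low-dose lungs, at 2.04, 13.8, 3.01, 2.17 and 60.0 TPM in mid-dose lungs and at 1.43, 133, 83.7, 5.84 and 19.5 TPM in high-dose lungs. Each of these 15 lungs lay above the highest control lung. Its log2 fold change over control was 1.54 in low-dose lungs (adjusted p = 0.307), 2.49 in mid-dose lungs (adjusted p = 0.0805) and 3.85 in high-dose lungs (adjusted p = 0.0134). Camp stood at 0.32, 3.07, 1.28, 1.65 and 2.34 TPM in low-dose lungs, at 0.93, 3.84, 1.31, 1.06 and 5.74 TPM in mid-dose lungs and at 0.14, 15.1, 11.4, 1.89 and 4.71 TPM in high-dose lungs. The low-dose and high-dose lungs each had 1 value within the control range. Its log2 fold changes were 1.15 (adjusted p = 0.204), 1.45 (adjusted p = 0.0963) and 2.18 (adjusted p = 0.0209).

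Ltf stood at 79.4, 26.2, 61.3, 127 and 30.4 TPM in low-dose lungs, at 45.3, 35.2, 131, 39.6 and 97.2 TPM in mid-dose lungs and at 120.0, 60.9, 88.9, 183 and 42.0 TPM in high-dose lungs. Its high lungs were not the high lungs of the other members: high-dose replicates 4 and 1, the lowest of that group for S100a9, were the highest for Ltf. Over control the log2 fold change was 1.00 in low-dose lungs (adjusted p = 0.0934), 1.14 in mid-dose lungs (adjusted p = 0.0486) and 1.65 in high-dose lungs (SE 0.476, adjusted p = 0.00879). The mid-dose call lay near the threshold and was lost in 20 of 33 alternatives, scaling among them (log2 fold change 0.55, adjusted p = 0.383). The high-dose call was lost in 2 of the 33 and held after scaling, there also near the threshold (1.33, adjusted p = 0.0493). Of the 20 challenged lungs, 13 lay above the highest control lung for Ltf, against 20 for S100a9, Retnlg, Padi4 and Ngp, 19 for S100a8, Mmp8 and Mmp9 and 18 for Camp. The count was also 20 for S100a11, whose log2 fold change in LPS against control lungs was 0.69, and 0.03 after scaling. Such counts were not made over all genes, so they do not set the members apart.

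Each dose was then set against LPS alone, the comparison that asks whether the extract changed these transcripts in a challenged lung. No member passed at any dose, with the TPM as deposited or after scaling (limma, 0 of 9 in each case). At an unadjusted p under 0.05, limma gave 1 member at the low dose (Ngp) and 0 at the mid and high dose; after scaling it gave 1 at the low dose (Ngp), 0 in mid-dose lungs and 1 at the high dose (Ltf). Of all genes, 10.6% were called in either direction in low-dose lungs, 0% in mid-dose lungs and 27.6% in high-dose lungs, and 2.11%, 0% and 8.73% after scaling. The 3 comparisons share the 5 LPS libraries, of which replicate 3 was the highest for 8 members.

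For the alarmin pair the intervals were wide on both sides of 0. S100a9 differed from LPS alone by a log2 fold change of 0.32 in low-dose lungs (95% interval -1.92 to 2.56), -0.47 in mid-dose lungs (-2.72 to 1.77) and -0.01 in high-dose lungs (-2.25 to 2.23). S100a8 differed by 0.41, -0.48 and 0.11. Intervals of this width hold falls and rises of similar size, so no difference was detectable between these lungs.

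The other mature-cell genes were as undecided. Retnlg differed from LPS alone by 0.43, -0.03 and 0.45 at the low, mid and high dose, Mmp8 by -0.16, -0.42 and -0.42, and Mmp9 by -0.21, -0.43 and -0.51. Padi4 had the narrowest intervals of the mature-cell genes and differed from LPS alone by -0.43 (95% interval -1.28 to 0.41), -0.41 (-1.26 to 0.43) and -0.75 (-1.60 to 0.09). None of these passed. Without LPS replicate 3 the Padi4 differences were -0.0087, 0.014 and -0.33, and without LPS replicate 4 they were -0.68 in low-dose lungs and -0.66 in mid-dose lungs.

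Of the precursor genes, Ngp had a log2 fold change over LPS lungs of -2.74 at the low dose, which did not pass after adjustment (95% interval -5.06 to -0.41, adjusted p = 0.110). It differed by -1.78 at the mid dose (-4.10 to 0.54) and by -0.42 at the high dose (-2.74 to 1.90). Without LPS replicate 3 these Ngp values were -1.74, -0.79 and 0.57. Camp differed by -1.30 (-2.71 to 0.12), -1.003 (-2.42 to 0.41) and -0.27 (-1.69 to 1.14). Without LPS replicate 3 the Camp values were -0.79, -0.50 and 0.23, and without LPS replicate 4 the mid-dose value was -0.64. The high-dose values changed sign with single libraries left out, over a range of -1.09 to 0.57 for Ngp and of -0.68 to 0.27 for Camp. Ltf differed by 0.23 (-0.70 to 1.17), 0.37 (-0.56 to 1.31) and 0.89 (-0.04 to 1.82), and at the high dose after scaling by 1.21 (adjusted p = 0.0929). With 1 library left out, Ltf ranged over -0.065 to 0.49 in low-dose lungs, lowest without low-dose replicate 4, and over 0.097 to 0.56 in mid-dose lungs, lowest without mid-dose replicate 3.

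**Figure D3:**
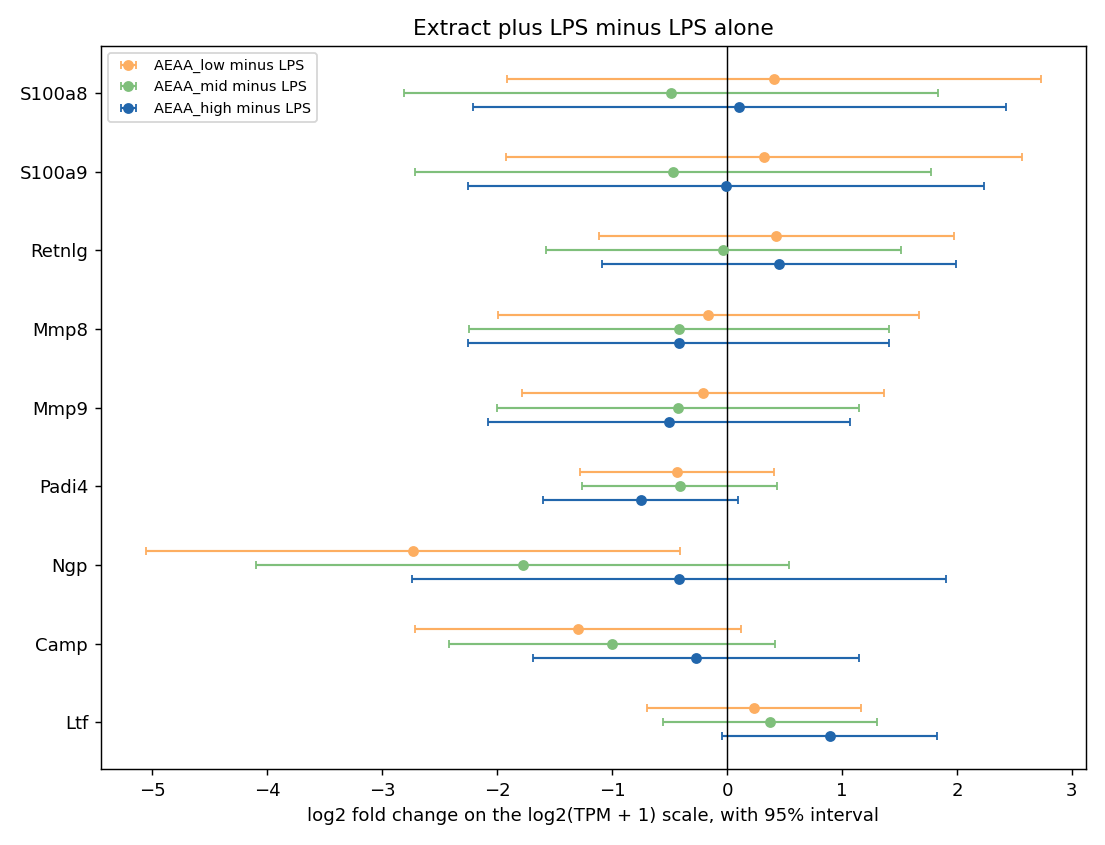
Log2 fold change (x axis, log2(TPM + 1) scale) of the 9 transcripts in low-dose, mid-dose and high-dose lungs over LPS lungs, with 95% intervals. Every interval crosses 0 except that of Ngp at the low dose, -5.06 to -0.41, which did not pass after adjustment over all genes.

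The members differed in how closely they followed one another from lung to lung, measured as the mean difference in rank over the 24 libraries, which share the contrast of challenged and control lungs. S100a8 and S100a9 differed by 0.417 ranks, and the 6 mature-cell genes among themselves by 0.417 to 3.33. Ngp and Camp differed from each other by 1.46 ranks and from the mature-cell genes by 2.92 to 4.25 and 2.71 to 4.42. Ltf differed from the mature-cell genes by 6.67 to 7.42 ranks, from Ngp by 7.58 and from Camp by 7.92, where the median over 14407 genes compared with Ltf was 7.29. Ltf thus stood as far from the other members as a gene taken from the middle of the table.

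Outside the 9, 14407 genes were compared, without those that lacked a symbol or carried a predicted one. Among them the nearest order of lungs to S100a9 was that of Ly6g (1.04 ranks), Cxcr2 (1.08), Ifitm6 (1.17), Ccr1 (1.25) and Gda (1.25), with a median over genes of 6.96. Ly6g and Cxcr2 mark mature neutrophils, and Ccr1 is a chemokine receptor of myeloid cells. For Ngp the nearest were Ino80c (1.88), Ppp1r2 (2.08), Ackr3 (2.17), Cct2 (2.25) and Nfe2 (2.25), with a median of 6.42. None of the 14407 genes was as near to Ngp as Camp.

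**Figure D4:**
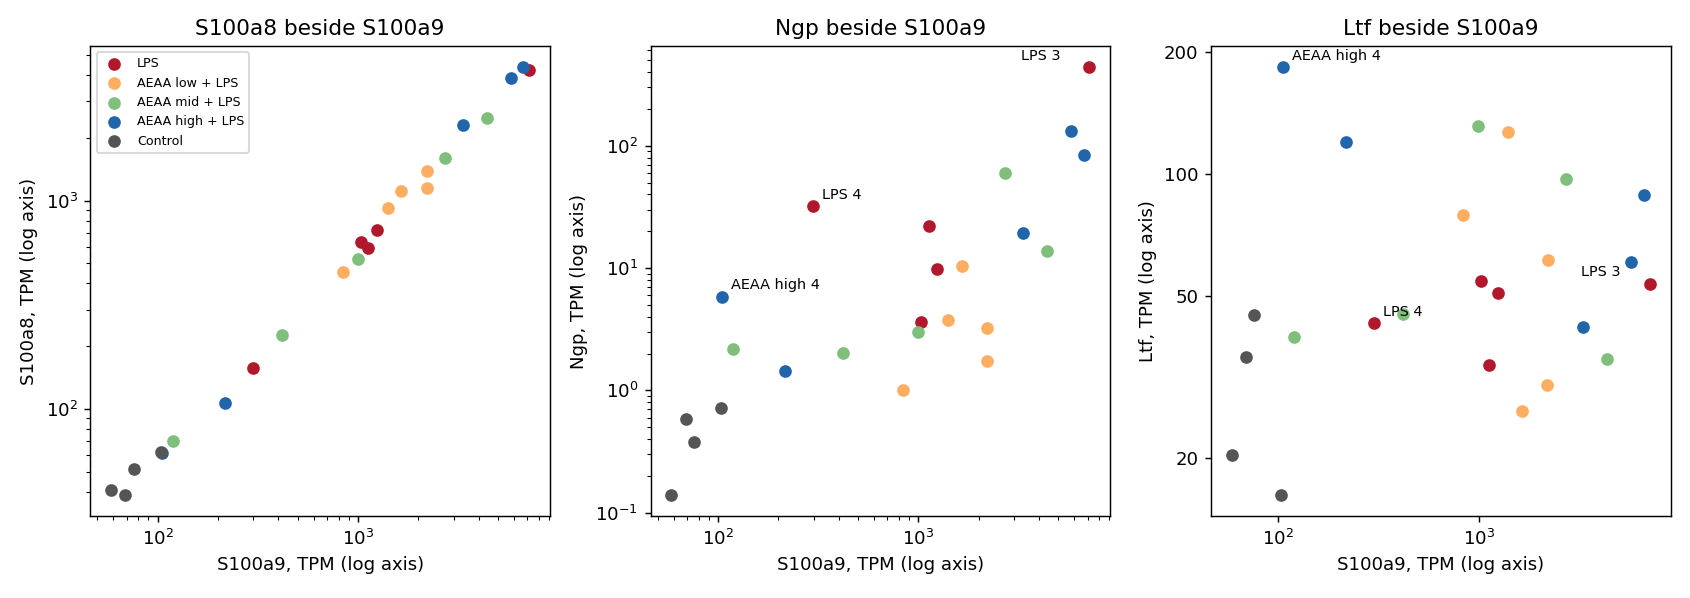
TPM of S100a8, Ngp and Ltf (y axes, log scale) against TPM of S100a9 (x axis, log scale) in the 24 libraries, colored by group. S100a8 follows S100a9 in a narrow band, Ngp scatters widely around it with LPS replicate 4 high at 299 TPM of S100a9, and Ltf shows no such band.

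The balance of precursor to mature transcripts was taken per library as a description, since it is a score over chosen genes. For each 1000 TPM of S100a9 there were 3.50, 19.7, 61.2, 106 and 7.83 TPM of Ngp in LPS lungs. The range was 0.785 to 6.27 in low-dose lungs, 3.03 to 22.0 in mid-dose lungs, 5.84 to 55.5 in high-dose lungs and 2.39 to 8.42 in control lungs. The low-dose lungs thus lay within or below the control range, while LPS replicates 2, 3 and 4, mid-dose replicates 4 and 5 and high-dose replicates 2, 3 and 4 lay above it. The highest proportion came from LPS replicate 4, the LPS lung with the least S100a9.

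The mean log2(TPM + 1) of the mature-cell genes minus that of the precursor genes was 2.14 ± 1.29 in LPS lungs, 3.46 ± 0.515 in low-dose lungs, 2.56 ± 0.765 in mid-dose lungs and 1.88 ± 1.34 at the high dose (SD, n = 5 each). It was 1.42 ± 0.279 in control lungs (SD, n = 4). Replicate 4 stood apart in LPS lungs (-0.13) and in high-dose lungs (-0.36), the only libraries below 0. With Ltf left out the means were 2.75, 4.83, 3.77 and 2.91 in the challenged groups and 2.90 in control lungs, so the place of the control group in this order depends on whether Ltf is counted as a precursor gene.

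Primary granule genes, made earlier than all members, were near the detection limit. The summed TPM of Mpo, Elane, Prtn3, Ctsg and Ms4a3 was 1.63 to 8.35 in LPS lungs, 1.52 to 4.87 in low-dose lungs, 1.88 to 3.94 in mid-dose lungs, 1.99 to 2.82 in high-dose lungs and 0.97 to 1.38 in control lungs, where Elane and Ms4a3 were listed at 0. LPS replicate 4, which had the highest Ngp per S100a9, also had the highest Mpo (1.91 TPM) and Elane (1.01 TPM), the myeloperoxidase and elastase of primary granules. The rest of the list peaked elsewhere, Prtn3 (5.34 TPM) and Ms4a3 (0.43 TPM) in LPS replicate 3 and Ctsg (0.55 TPM) in mid-dose replicate 2. Of the 5 genes only Prtn3, proteinase 3, passed the filter, and it rose in LPS against control lungs by 0.81 (SE 0.279, adjusted p = 0.0160), and by 0.42 after scaling (adjusted p = 0.259).

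The counts of other gene lists in LPS against control lungs stand against the same background, 56.2% of all genes called higher and 14.2% after scaling. Of 13 other specific granule genes and granulocyte factors, 12 passed the filter, and 8 rose and 0 fell in LPS against control lungs (3 and 0 after scaling). Lcn2, the siderophore-binding lipocalin, had a log2 fold change of 4.31 (adjusted p = 0.0278), Itgam, the CD11b integrin chain, of 3.47 and Cd177, a neutrophil surface protein, of 3.41. Haptoglobin (Hp), the second most abundant gene of this list, did not pass, at 0.81 (adjusted p = 0.0882). Of 16 surface and signalling genes of mature neutrophils, 15 were in the table and passed the filter, and 14 rose (4 after scaling), among them the decoy receptor Il1r2 at 3.72 and the lectin Clec4d at 3.63. Fpr2, a formyl peptide receptor, rose by 2.90 (adjusted p = 0.0305). The exception was G0s2, which did not pass at -0.30 and was lower after scaling at -0.95 (adjusted p = 0.000982). Against LPS alone, limma passed 0 genes of these 2 lists at any dose, scaled or not, and at an unadjusted p under 0.05 it gave 1 at the high dose and, after scaling, 2 at the low dose. Other lists held calls against LPS alone. Of 12 relatives of the members, 4 were higher at the high dose (6 after scaling) and 2 at the low dose (3 after scaling). Also at the high dose, 3 of 4 proliferation genes, 1 alarmin receptor, 1 Timp gene and 1 lymphocyte marker were lower, 0 after scaling. After scaling 1 platelet marker was higher there. Of all genes 27.6% were called at the high dose and 10.6% at the low dose, and 8.73% and 2.11% after scaling.

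Of 5 receptors for the alarmins (Tlr4, Ly96, Cd14, Cd36 and Ager), 3 rose in LPS against control lungs and 1 after scaling, shares near the 56.2% and 14.2% of all genes. The 3 were Cd14, the LPS co-receptor, by 2.60 (adjusted p = 0.00937), Tlr4 by 1.35 and the scavenger receptor Cd36 by 1.00. Only Tlr4 passed after scaling, at 0.79 (adjusted p = 0.0201). Ager, which encodes RAGE and is abundant in type I alveolar epithelium, did not pass at 0.30 (adjusted p = 0.138). Of 15 relatives of the members in the S100, resistin-like and Padi families, 12 passed the filter, and 6 rose and 0 fell (1 and 3 after scaling). The share that rose was below the background, and the median log2 fold change of the list was 0.58, against 0.55 for all genes. S100a14 had the largest change at 2.01, and S100a11, the most abundant, changed by 0.69; after scaling S100a11 stood at 0.03 and did not pass. Padi2, another deiminase, rose by 0.76 (adjusted p = 0.00186) but did not pass after scaling, at 0.30 (adjusted p = 0.185). Retnla, a resistin-like gene, did not pass at 0.83 (adjusted p = 0.0557). Of 7 attractants of neutrophils, 6 passed the filter and 2 rose (0 after scaling), Il1b by 4.13 and Cxcl5 by 3.65. Both counts were below the shares of all genes, 56.2% and 14.2%. Cxcl2 did not pass at 4.28 (SE 2.24, adjusted p = 0.107).

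Markers of other cells moved in the same comparison, and their part in the members' values was not tested. Of 7 alveolar macrophage markers 5 rose in LPS against control lungs (0 after scaling), with summed TPM of 554 to 2320 in LPS lungs, 1244 to 1459 in low-dose lungs, 871 to 1910 in mid-dose lungs, 527 to 1463 in high-dose lungs and 364 to 499.8 in control lungs. Marco rose by 2.41, Chil3 by 1.50 and Car4 by 0.48. Of 5 monocyte markers 4 rose (1 after scaling), with summed TPM of 207 to 414 in LPS lungs, 177 to 638 in low-dose lungs, 192 to 448 in mid-dose lungs, 80.7 to 421 in high-dose lungs and 61.2 to 99.1 in control lungs. Ly6c2 rose by 2.03, Ms4a6c by 1.98 and Fn1 by 1.86, and of the list only Fn1 passed after scaling (1.22, adjusted p = 0.0159). Monocytes express S100a8 and S100a9 too, at lower levels than neutrophils. Of 4 proliferation genes all 4 rose (2 after scaling), with summed TPM of 24.3 to 94.5 in LPS lungs and 9.95 to 14.4 in control lungs. Cdk1 rose by 1.53, Mki67 by 1.44 and Top2a by 1.34. The highest sum came from LPS replicate 3, the lung with the highest Ngp, a match that rests on 1 lung. Mki67 was next highest in low-dose replicate 4 (8.18 TPM), where Ngp was 3.78 TPM. In high-dose replicate 2, with Ngp at 133 TPM, Mki67 stood at 3.20 TPM.

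Of 5 lymphocyte markers 3 rose (1 after scaling), near the background of 56.2% and 14.2%, with Ncr1 at 1.44 and Ms4a1 at 1.25. Of 5 erythroid markers 1 rose, Alas2 by 1.33 (0 after scaling), below the background, and the globins Hbb-bs and Hba-a2 did not pass at 0.33 and 0.50. Of 4 platelet markers 0 passed (limma, 0 also after scaling, with 0 at an unadjusted p under 0.05 and 1 after scaling), among them Pf4 at 0.26 and Ppbp at -0.36. Of 5 eosinophil, mast cell and basophil markers 2 passed the filter and 0 were called (limma, 0 also at an unadjusted p under 0.05), Mcpt4 at 0.66 and Cpa3 at 0.54, and Epx was at or near 0 in every library. Of 5 epithelial markers, Scgb1a1 fell by 2.56 (adjusted p = 2.55e-07), and Sftpc did not pass at -0.96 (adjusted p = 0.186) but was lower after scaling at -1.62 (adjusted p = 0.0380). Of 3 skeletal muscle markers 1 rose (Mylpf, 3.14; 0 after scaling), while Acta1 at 3.68 and Ckm at 1.37 did not pass. Acta1 stood at 1990 and 1296 TPM in LPS replicates 1 and 3, and at 470 TPM in low-dose replicate 5. LPS replicate 3 is thus also a library with muscle transcripts. Without it S100a9 kept a log2 fold change of 3.42 over control and S100a8 of 3.23, both past the threshold. LPS replicate 1 stayed in that fit, and a fit without all of these libraries was not run.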

How the data were processed

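The authors depleted ribosomal RNA from lung RNA of 24 mice and read paired ends of 150 bases, per the labels' protocols. The deposited table gives TPM per gene, which the authors scaled to the same sum in each library; HISAT2, StringTie, RSEM, DESeq2 and build GRCm39 are named, without versions or roles, per the submitters' processing notes. No counts were used, so depth is unknown and no counting interval can be given.

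Values were analysed as log2(TPM + 1), for the 17823 genes that reached 1 TPM in 4 or more libraries. Group means of all 24 libraries were estimated together in limma 3.58.1 under R 4.3.3 (variance trend, robust prior, two-sided moderated tests), with Benjamini-Hochberg adjustment over all genes and a threshold of 0.05. Fold changes are on the log2(TPM + 1) scale, which understates changes of low genes, and 95% intervals are unadjusted. The fit was tested on simulated data. Replicates are mice by their labels.

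Each fit was repeated after dividing libraries by median-of-ratios factors. Other alternatives were upper-quartile scaling, no filter, a filter on mean TPM, a pseudocount of 0.1, only the compared groups, sample quality weights, the replicate number as a block and leaving out each library, and, chosen after seeing the data, a total without Scgb1a1 and, for the balance of transcripts, Ltf left out.

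The members and all 18 gene lists were chosen with earlier results of these data known. Named genes are the members, and in each other list the 2 most abundant and the 2 with the largest change that passed in LPS against control, the 5 nearest in rank to S100a9 and to Ngp, and Cxcl2 and Tnf. Genes named outside this rule (Cd177, Elane, Ctsg, Ms4a3, Epx and the sex-linked genes) were chosen after their values were seen. Of the genes this rule names, 1 is not reported here. Of the listed symbols, 1 was absent from the table. Promoter strings were searched on both strands of RefSeq windows of build GRCm38.p6, used for sequence only.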

Additional observations from a re-analysis of the deposited data

Results flagged for a closer look

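Within groups of 4 or 5 lungs, the gap between the most extreme lung and its nearest neighbour was set against the whole range of the group, for 9 transcripts in 5 groups. Of these 45 groups 6 had a lung farther out than the 95% limit. The gaps were taken on TPM and not on log2(TPM + 1), and the limit assumes normally spread values. For skewed TPM a rate of 1 in 20 by chance need not hold, so the count is a description only. LPS replicate 3 stood apart for S100a8 (4220.51 TPM), S100a9 (7144.53 TPM), Ngp (437.21 TPM), Mmp8 (100.83 TPM) and Padi4 (25.15 TPM). These 5 values come from 1 lung, so they are not independent. Mid-dose replicate 5 stood apart for Ngp (60.02 TPM).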

How the results depend on the processing

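Against control, 1109 of 1188 values kept their direction and side of the threshold across the alternatives, 65 lost a call, 14 gained one and 0 changed sign. Most lost calls were Ltf at the mid dose (20 of 33 alternatives) and Mmp8 (11) and Padi4 (9) at the high dose. The members called at the mid dose fell to 2 of 9 with median-of-ratios and with upper-quartile scaling. At the high dose 5 were called with upper-quartile scaling, 4 with the total taken without Scgb1a1 (chosen after seeing the data), and 5 to 9 with 1 library left out, the lowest without high-dose replicate 2. Against LPS alone, 840 of 891 values kept both, 1 gained a call and 50 changed sign, none of them called. With sample quality weights 1 member was called at the high dose (Retnlg). For the high dose against LPS alone these weights also turned S100a9 (1.53), Mmp8 (0.67), Mmp9 (0.42), Ngp (0.98) and Camp (0.62) above 0, and for the mid dose Retnlg (0.16). Median-of-ratios scaling turned Mmp8 (0.038) and Mmp9 (0.011) above 0 at the low dose, Retnlg (0.021) at the mid dose, and S100a9 (0.31) and Camp (0.0024) at the high dose. Upper-quartile scaling did so for Mmp8 (0.026), Retnlg (0.011) and S100a9 (0.28), and the total without Scgb1a1 for S100a9 at the high dose (0.016). The cause was not tested. Single libraries were then left out. At the low dose, log2 fold changes over LPS alone that changed sign ranged over -0.14 to 1.05 for S100a8, -0.19 to 0.95 for S100a9, -0.013 to 0.92 for Retnlg, -0.57 to 0.55 for Mmp8, -0.67 to 0.29 for Mmp9 and -0.065 to 0.49 for Ltf. At the mid dose, log2 fold changes over LPS alone that changed sign ranged over -1.06 to 0.22 for S100a8, -1.04 to 0.25 for S100a9, -0.47 to 0.46 for Retnlg, -0.83 to 0.30 for Mmp8, -0.89 to 0.068 for Mmp9 and -0.66 to 0.014 for Padi4. At the high dose, log2 fold changes over LPS alone that changed sign ranged over -0.52 to 1.01 for S100a8, -0.62 to 0.88 for S100a9, -0.92 to 0.30 for Mmp8, -0.97 to 0.19 for Mmp9, -1.09 to 0.57 for Ngp and -0.68 to 0.27 for Camp. The balance of mature-cell over precursor transcripts moved by more than 1 SD with Ltf left out, to 4.83 in low-dose lungs, 3.77 in mid-dose lungs and 2.90 in control lungs; in control lungs it was also 2.39 with a pseudocount of 0.1 and 2.20 with Mmp8 counted as a precursor gene.

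Replicate numbers did not pair the lungs: deviations of 46 same-numbered pairs correlated at -0.45 to 0.65 (median 0.06, 20 over 0.1), and 5 of 24 libraries correlated best with their own number. With the replicate number as a block, 8, 7, 7 and 9 members were called over control in LPS, low-dose, mid-dose and high-dose lungs, and 0 over LPS alone at each dose. Depth is unknown, and transcripts below about 1 TPM (Camp and Ngp in control lungs) are the least certain.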
